A study of Saccharomyces cerevisiae with 4 samples.

Results

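Arginine biosynthesis was examined in 2 strains of the budding yeast Saccharomyces cerevisiae through the genes ARG1, ARG2, ARG3, ARG4, ARG5,6, ARG7, ARG8 and CPA1. These 8 genes were taken by name, and their probe sets were found through the annotation of the array. A probe set was found for 7 of them, each with 1 probe set that the array maker does not mark as shared between sequences, among 5449 S. cerevisiae genes with a probe set. ARG5,6 (YER069W) is not analysed here. One group was X2180, a laboratory strain related to the reference strain S288C, and the other was NBRC1950, a strain named as in a Japanese culture collection. Each was represented by 2 Affymetrix Yeast Genome 2.0 arrays from independent experiments. Both were grown with shaking in YPD, a rich glucose medium that supplies amino acids. No deletion, plasmid or treatment is given for either strain, and no growth phase, cell density or ploidy. The title of the series concerns ergosterol and tolerance to vanillin, and the comparison asks which transcripts differ between the strains without treatment.

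Yeast makes arginine from glutamate. In the mitochondrion glutamate is acetylated and turned through acetylated intermediates into ornithine, and in the cytosol ornithine is joined with carbamoyl phosphate to give citrulline, which becomes argininosuccinate and then arginine. Several of these genes are under double control. Gcn4, an activator made when amino acids run short, raises them, and a complex of Arg80, Arg81, Arg82 and Mcm1 represses them when arginine is present. CPA1 is further held down by arginine through a short leader peptide encoded in its own messenger.

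The genes of arginine synthesis had lower signals in NBRC1950. In limma, 6 of the 7 measured genes were lower at an adjusted p under 0.05 and 0 were higher. Of the 5316 tested genes, 26.8% were called lower and 20.4% higher. The median difference of the 7 genes, NBRC1950 minus X2180, was -0.79 on the log2 scale, against -0.05 over all tested genes. The sizes ranged from -2.78 for ARG1 to -0.14 for ARG8, the gene that did not pass. A difference of at least 2-fold that also passed the test was found for 3 of the 7 genes (ARG1, ARG7 and ARG4), and for 4.76% of all tested genes. Signals here are deposited intensities, scaled so that the median S. cerevisiae probe set was equal on all arrays, and values are given as mean ± SD of 2 arrays. In whole cultures, a lower signal cannot tell fewer cells with the transcript from less transcript in each cell. Probes mismatched to the sequence of NBRC1950 were not masked, so sequence and transcript level were not separated.

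**Figure D1:**
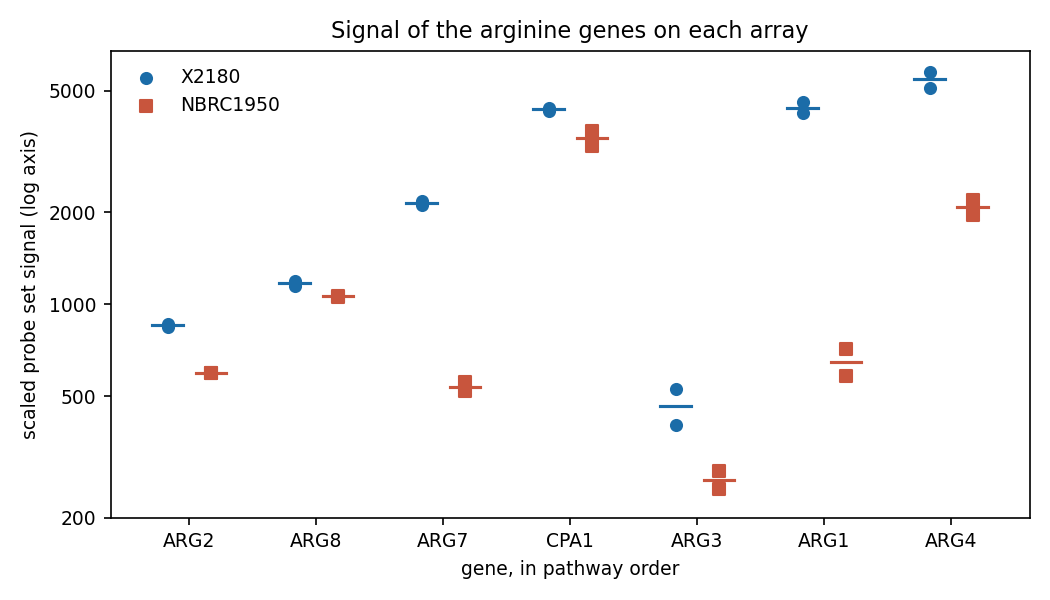
Scaled signal (log axis) of the 7 measured arginine genes on each array, with X2180 as circles, NBRC1950 as squares and the mean of each strain as a bar. Both NBRC1950 arrays lie below both X2180 arrays for each gene, as they do for 42.3% of all tested genes. The gap is widest at ARG1 (4233 and 4586 against 581 and 711.8) and narrowest at ARG8 (1152 and 1193 against 1059 and 1067).

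The mitochondrial steps up to ornithine differed widely in size. ARG2 encodes the acetylglutamate synthase that opens the pathway. Its signals were 844.9 and 861 in X2180 and 597.6 and 594.8 in NBRC1950. The 4 arrays thus formed 2 tight groups that did not overlap, and the difference was -0.52 ± 0.08 (SE; limma adjusted p = 0.00139).

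ARG8 encodes the acetylornithine aminotransferase, which makes acetylornithine. Its signals were 1152 and 1193 in X2180 and 1059 and 1067 in NBRC1950. The arrays of the strains did not overlap, as for 42.3% of all tested genes with NBRC1950 on the lower side, but the difference of -0.14 ± 0.07 did not pass (SE; limma adjusted p = 0.138). Its 95% interval ran from -0.30 to 0.02.

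ARG7, also called ECM40, encodes the ornithine acetyltransferase, which frees ornithine and hands the acetyl group back to glutamate. Its signals were 2179 and 2121 in X2180 and 555.6 and 519.7 in NBRC1950. NBRC1950 thus stood at 25% of the X2180 level, with arrays of a strain close together. The difference was -2.0 ± 0.07 (SE; limma adjusted p = 1.56e-06), and 1.75% of tested genes had a more negative one.

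ORT1, the carrier that exports ornithine from the mitochondrion, was lower as well. Its signals were 1161 and 864.1 in X2180 and 621 and 666.9 in NBRC1950, with X2180 arrays further apart than those of NBRC1950. The difference was -0.64 ± 0.14 (SE; limma adjusted p = 0.00698), and it ranged from -0.85 without X2180 replicate 2 to -0.43 without X2180 replicate 1, passing in each case. Scaled to the all-probe-set median it was at -0.09 and did not pass. ORT1 is not one of the 8 genes.

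In the cytosol the gene for carbamoyl phosphate differed little. CPA1 encodes the small subunit of the arginine-specific carbamoyl phosphate synthetase, which takes the amide group from glutamine. Its signals were 4307 and 4388 in X2180 and 3291 and 3699 in NBRC1950, so that NBRC1950 stood at 80.3% of X2180. The difference was -0.32 ± 0.08 (SE; limma adjusted p = 0.0111), and without NBRC1950 replicate 1 it was -0.23 and did not pass (adjusted p = 0.118).

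The array also carries a probe set for YOR302W, the reading frame of the leader peptide that lies upstream of CPA1 in the same messenger. It read 1639 and 1357 in X2180 and 1123 and 1219 in NBRC1950, without overlap. Its difference, -0.35 ± 0.10 (SE; limma adjusted p = 0.0246), lay close to that of CPA1, with a 95% interval from -0.59 to -0.11. Its call was lost without X2180 replicate 1, at -0.21 (limma adjusted p = 0.104), or NBRC1950 replicate 1 (0.0893).

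ARG3 encodes ornithine carbamoyltransferase, which joins ornithine and carbamoyl phosphate. Its signals were 528.2 and 401.8 in X2180 and 247.8 and 285.1 in NBRC1950. It had the widest spread within a strain of the 7 genes, 0.39 on the log2 scale between the X2180 arrays, yet the strains did not overlap. The difference was -0.79 ± 0.15 (SE; limma adjusted p = 0.00403), and it ranged from -0.99 to -0.60 with 1 array left out.

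The genes of the last steps were among those that differed most. ARG1 encodes argininosuccinate synthetase, which joins citrulline and aspartate. Its signals were 4233 and 4586 in X2180 and 581 and 711.8 in NBRC1950, a mean of 4410 ± 250 against 646.4 ± 92.5 (SD, n = 2 arrays in each strain). NBRC1950 stood at 14.6% of X2180, and the array pair with the smallest gap still differed by -2.57. The difference was -2.78 ± 0.10 (SE; limma adjusted p = 1.57e-06), and 1.17% of tested genes had a more negative one.

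ARG4 encodes argininosuccinate lyase, which releases arginine and fumarate. Its signals were 5782 and 5125 in X2180 and 1961 and 2201 in NBRC1950. The arrays did not overlap, and NBRC1950 stood at 38.2% of X2180. The difference was -1.39 ± 0.09 (SE; limma adjusted p = 2.11e-05).

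The 7 genes did not differ by a common amount. From the most to the least negative the order was ARG1, ARG7, ARG4, ARG3, ARG2, CPA1 and ARG8. The 95% intervals of 17 of the 21 pairs of genes did not overlap. The pairs whose intervals did overlap were ARG3 with ARG2, ARG3 with CPA1, ARG2 with CPA1, and CPA1 with ARG8. Overlap of intervals is not a test of the difference between 2 genes, and the order within pairs was not tested. The order did not follow the order of the reactions: within the mitochondrial steps ARG7 was far below ARG8, and in the cytosol ARG1 and ARG4 were far below CPA1. The spacing of the genes was also taken relative to ARG8 on the same array, a measure that no scaling factor of an array can change. ARG8 was the least negative of the 7, so the fitted values of the others were negative by that choice. ARG1 was then at a log2 difference of -2.64. In the same terms ARG7 was at -1.86, ARG4 at -1.25, ARG3 at -0.65, ARG2 at -0.38 and CPA1 at -0.18. Over the 4 pairs of an X2180 and an NBRC1950 array, the value of ARG1 ran from -2.81 to -2.46 and that of CPA1 from -0.27 to -0.09. That of ARG3 ran from -0.971 to -0.335 and that of ARG2 from -0.397 to -0.355.

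How many of the 7 counted as lower depended on the scaling. The design text names the 50th percentile of each chip and does not say over which probe sets it was taken. The array also carries fission yeast probe sets, so a percentile over all of them would be taken partly over background. Scaled to the all-probe-set median, the median tested gene moved from -0.05 to 0.50, where 6.04% of tested genes were called lower and 74.6% higher. ARG1 (-2.23), ARG7 (-1.45) and ARG4 (-0.84) were then still lower in limma. ARG3 (-0.25) and ARG2 (0.03) did not pass, and ARG8 (0.41) and CPA1 (0.23) were called higher. With no further scaling the median gene was at 0.16, 7.20% were called lower, and 4 of the 7 genes (ARG1, ARG7, ARG4 and ARG3) passed as lower. With quantile normalization the 6 genes were lower as in the main scaling, where 22.4% of genes were. Relative to the median gene, the 7 values were -2.73, -1.95, -1.34, -0.75, -0.47, -0.27 and -0.09 in the order given above, under the main scaling and under both other per-array scalings.

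**Figure D2:**
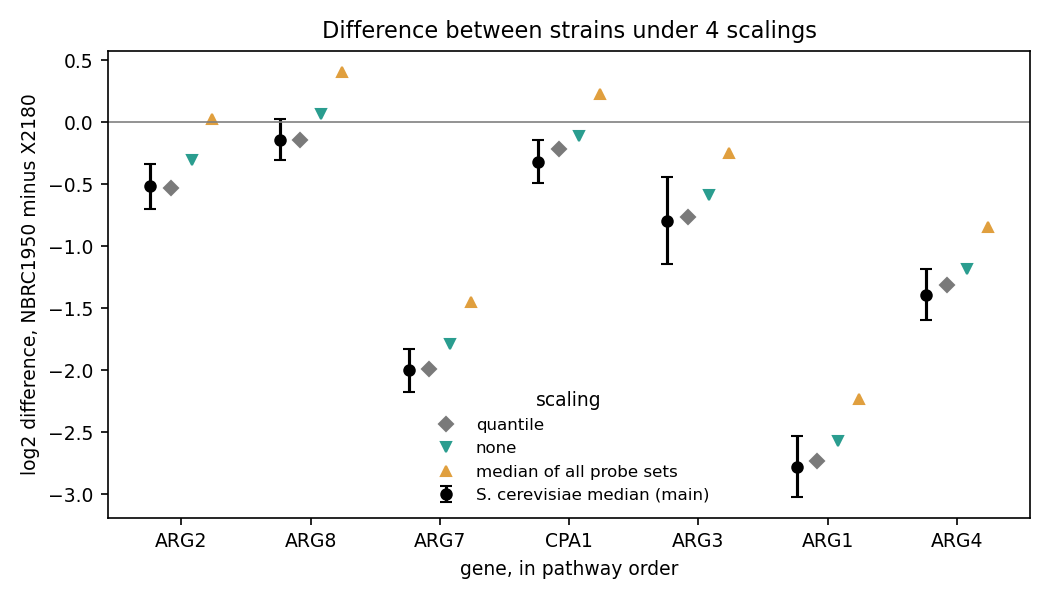
Log2 difference, NBRC1950 minus X2180, of the 7 genes under 4 scalings, with the 95% interval of the limma fit drawn for the main scaling. ARG1, ARG7 and ARG4 stay below -0.8 throughout, whereas ARG8, CPA1 and ARG2 cross 0 when arrays are scaled to the all-probe-set median.

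Ribosomal RNA probe sets and the end ratio of a control transcript also differed between the arrays of the strains. Poly(A) RNA was labelled, so the ribosomal signals do not measure the ribosomal RNA content of the cells. The 17 ribosomal RNA probe sets gave lower signals in NBRC1950 without exception, with a mean difference of -1.10 and an SD over probe sets of 0.32. The 3′ end of the control transcript SRB4 outshone its 5′ end by 2.05 and 2.18 on the log2 scale in X2180, and by 2.66 and 2.83 in NBRC1950, whereas the strains differed less in this respect for ACT1, SPT15 and WBP1. The part of these in the values of the arginine genes was not tested. All 7 genes were above background on every array, and the arrays of a strain correlated at 0.995 and 0.996 across genes, against 0.912 to 0.915 between strains.

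**Figure D3:**
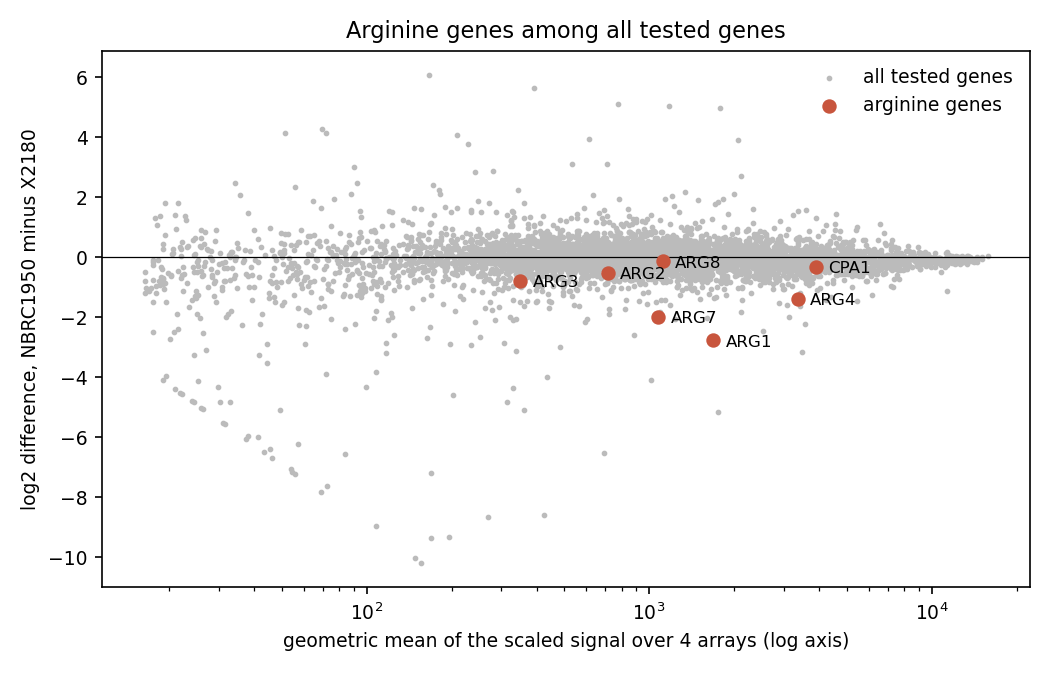
Log2 difference, NBRC1950 minus X2180, against the geometric mean signal over the 4 arrays (log axis) for the 5316 tested genes in grey and the 7 arginine genes in red. ARG1, ARG7 and ARG4 lie below the main cloud of genes, and ARG8 and CPA1 lie inside it.

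The chromosomal neighbours of the genes were read beside them. The arginine genes lie apart on chromosomes VIII (ARG4), X (ARG2 and ARG3), XIII (ARG7) and XV (ARG1, ARG8 and CPA1). Of the 14 open reading frames next to them, all tested, 3 were called lower (21.4%) and 0 higher, with a median of -0.11. Over all tested genes, 26.8% were called lower and 20.4% higher. The 3 were YOR302W, described above, DED81 beside ARG4 (-0.25 ± 0.06, SE), which encodes the cytosolic asparaginyl-tRNA synthetase, and YOL057W beside ARG1 (-0.23 ± 0.07, SE). The call of DED81 was lost without either NBRC1950 array (limma adjusted p = 0.121 and 0.221) and that of YOL057W without any one of the arrays (0.0503 to 0.121). Scaled to all probe sets, both were called higher, as were 74.6% of all tested genes. None of the 14 had a fitted difference of 2-fold or more on the lower side. SIP4, beside ARG3, lay below background on 1 NBRC1950 array, so its size is uncertain, and it did not pass (limma adjusted p = 0.116).

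The regulators of the arginine genes did not pass the test under the main scaling. ARG80, ARG81, ARG82 and MCM1, the parts of the arginine-sensing complex, gave 0 calls of 4 in limma, and 0 of them had an unadjusted p under 0.05. ARG80 was at -0.28 ± 0.14 (SE), with signals of 287.8 and 267.1 in X2180 and 258.3 and 201.3 in NBRC1950. MCM1, which encodes a MADS-box factor with many other partners, was at -0.15, ARG82, an inositol polyphosphate kinase, at 0.11 and ARG81, the zinc-cluster protein that senses arginine, at 0.16. Scaled to all probe sets, 3 of the 4 (ARG81, ARG82 and MCM1) were called higher, as were 74.6% of all tested genes.

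GCN4 messenger did not pass the test. It read 10870 and 11910 in X2180 and 11070 and 11050 in NBRC1950, overlapping, with a difference of -0.04 ± 0.07 (SE; limma adjusted p = 0.666) and a 95% interval from -0.21 to 0.13. Gcn4 is controlled mainly at translation and by degradation, neither of which the arrays measure. Of 14 genes of general amino acid control, GCN4 included, 5 were lower (35.7%, against 26.8% of all tested genes) and 0 higher, with a median of -0.16. Scaled to all probe sets, 0 were lower and 12 higher, where 74.6% of all tested genes were higher, and 2 were lower with quantile normalization or without either NBRC1950 array. PCL5, a cyclin that promotes the breakdown of Gcn4 and is itself a Gcn4 target, had the widest difference. Its signals were 1467 and 1321 in X2180 and 877.9 and 920.5 in NBRC1950. The difference was -0.63 ± 0.08 (SE; limma adjusted p = 0.000676), or -0.09 when scaled to all probe sets, which did not pass. The other 4 were GCN20 (-0.33), a partner of the kinase activator Gcn1, SUI2 (-0.24), the alpha subunit of eIF2, and GCD1 (-0.27) and GCD6 (-0.22), subunits of eIF2B. GCN20 did not pass without NBRC1950 replicate 1 (limma adjusted p = 0.0581), nor SUI2 and GCD6 without either NBRC1950 array (0.0931 to 0.205 and 0.124 to 0.129), nor GCD1 without X2180 replicate 1 (0.0719) or NBRC1950 replicate 2 (0.142). GCD6 falls outside the rule for named genes and was named after its value was seen.

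Nonsense-mediated decay, which acts on the CPA1 messenger when the leader peptide stalls the ribosome, was read by 3 genes. NMD2 was higher in NBRC1950 by 0.39 ± 0.08 (SE; limma adjusted p = 0.00692). UPF3 (0.26) and NAM7 (-0.13), the helicase also known as UPF1, did not pass. UPF3 passed as higher without NBRC1950 replicate 2, at 0.41 (adjusted p = 0.0227). Scaled to all probe sets, the 3 genes were called higher, as were 74.6% of all tested genes.

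Genes that supply the precursors went both ways. Of 12 genes, 2 were higher and 6 lower in NBRC1950 (50% lower), with a median of -0.25. Of all tested genes, 20.4% were higher and 26.8% lower. Scaled to all probe sets, 6 were higher and 1 lower, where 74.6% of all tested genes were higher and 6.04% lower. GLT1, the glutamate synthase, had signals of 2149 and 2099 in X2180 and 3238 and 3239 in NBRC1950. It stood at 0.61 ± 0.06 (SE; limma adjusted p = 0.000228), on the side opposite to the arginine genes. GDH1, the main glutamate dehydrogenase of synthesis, was the other higher gene, at 0.34, named after its value was seen, but not past the test without NBRC1950 replicate 1 (limma adjusted p = 0.0755).

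GDH3, the minor isoenzyme of GDH1, had the widest difference on the lower side, -1.11 ± 0.16 (SE; limma adjusted p = 0.00103). Its signals were 167.3 and 201.9 in X2180 and 86.85 and 83.83 in NBRC1950. It was the gene of this list that was lower under all 4 scalings. IDP1, the mitochondrial isocitrate dehydrogenase that yields oxoglutarate, was at -0.54 and YHM2, a mitochondrial carrier of citrate and oxoglutarate, at -0.45. Neither passed with no further scaling or when scaled to all probe sets.

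Genes that break arginine down or carry it were called in both directions. Of 8 tested genes of arginine, proline and urea breakdown, 2 were higher and 3 lower (37.5%), where 20.4% of all tested genes were higher and 26.8% lower. Their median was -0.07, and it ran from -0.21 to 0.04 with 1 array left out. Without either NBRC1950 array, 1 was higher. With no further scaling, 1 was higher and 1 lower. Under the all-probe-set scaling 5 were higher and 1 lower, where 74.6% of all tested genes were higher and 6.04% lower. CAR1, the arginase, was at -0.42 ± 0.07 (SE; limma adjusted p = 0.00264). Its signals were 5249 and 4843 in X2180 and 3649 and 3895 in NBRC1950. It was at 0.13 and did not pass when scaled to all probe sets. PUT3, the activator of proline use, was lower at -1.10, and PUT2, which makes glutamate from proline breakdown, was higher at 0.56, both under all 4 scalings. CAR2 was the other higher gene, at 0.27 (limma adjusted p = 0.015), and was named after its value was seen. PRO3, the reductase that yields proline, was at -0.34, and did not pass without NBRC1950 replicate 1 (limma adjusted p = 0.0532).

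Of 9 tested genes of basic amino acid transport, 2 were higher and 4 lower (44.4%), with a median of -0.21. Of all tested genes, 20.4% were higher and 26.8% lower. When scaled to all probe sets, 4 were higher and 1 lower, where 74.6% of all tested genes were higher and 6.04% lower. With 1 array left out the median ran from -0.48 without NBRC1950 replicate 1 and -0.42 without X2180 replicate 1 to -0.07 without NBRC1950 replicate 2 and -0.02 without X2180 replicate 2. CAN1, the plasma membrane arginine permease, had signals of 1613 and 1380 in X2180 and 1581 and 1608 in NBRC1950. It was at 0.10 ± 0.09 (SE; limma adjusted p = 0.399) and did not pass. RTC2, also called YPQ3, a vacuolar transporter of basic amino acids, had signals of 188.5 and 216.2 in X2180 and 55.04 and 61.63 in NBRC1950. It was at -1.79 ± 0.16 (SE; limma adjusted p = 0.000117), a size between those of ARG4 and ARG7, and was lower under all 4 scalings. Other vacuolar transporters of this list were at -0.59 (YPQ1), -0.55 (VBA2) and -0.48 (VBA1), and these did not pass when scaled to all probe sets.

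The higher genes of the transport list were GAP1 and VBA3, both named after their values were seen. GAP1, the general amino acid permease, was at 0.45, and its call was lost without X2180 replicate 2 or without either of the NBRC1950 arrays (limma adjusted p = 0.102 to 0.194). VBA3 was read by a probe set shared between similar sequences, so its signal cannot be given to that gene alone. The probe set was not above background on either X2180 array and was at least 1.99-fold higher in NBRC1950, where a bound sets the signal of NBRC1950 against the background limit of each X2180 array. Its call was lost without X2180 replicate 1 (limma adjusted p = 0.0541) or NBRC1950 replicate 2 (0.0523).

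Neighbouring pathways of glutamate, ornithine and carbamoyl phosphate were read as well. Of 7 genes of proline and polyamine synthesis, 5 were lower and 0 higher, with a median of -0.23, where 26.8% of all tested genes were lower. When scaled to all probe sets, 0 were lower and 5 higher, where 74.6% of all tested genes were higher. With quantile normalization 2 were lower. SPE3, the spermidine synthase, was at -0.56 and PRO2, the glutamyl phosphate reductase, at -0.36. PRO1, the glutamate kinase, was at -0.26 and SPE4, the spermine synthase, at -0.23. The call of PRO1 was lost without X2180 replicate 2 (limma adjusted p = 0.0899) or NBRC1950 replicate 2 (0.151), and SPE4 did not pass without X2180 replicate 2 (0.139) or without the first (0.0573) or the second (0.239) array of NBRC1950. Of the list, 2 to 3 genes were lower without X2180 replicate 2 or either NBRC1950 array.

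Of 10 genes of pyrimidine synthesis, 4 were lower (40%) and 0 higher, with a median of -0.19, where 26.8% of all tested genes were lower. When scaled to all probe sets, 0 were lower and 8 higher, where 74.6% of all tested genes were higher. URA2, whose product makes the carbamoyl phosphate of the pyrimidine route, was at 0.16 ± 0.12 (SE; limma adjusted p = 0.307), or 0.33 and past the test without X2180 replicate 2 (adjusted p = 0.0449), and was named for that role after its value was seen. The lower genes were URA7 (-0.48), URA1 (-0.41), URA6 (-0.31) and URA4 (-0.22), the last of which lost its call without NBRC1950 replicate 1 (limma adjusted p = 0.13) or replicate 2 (0.129).

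**Figure D4:**
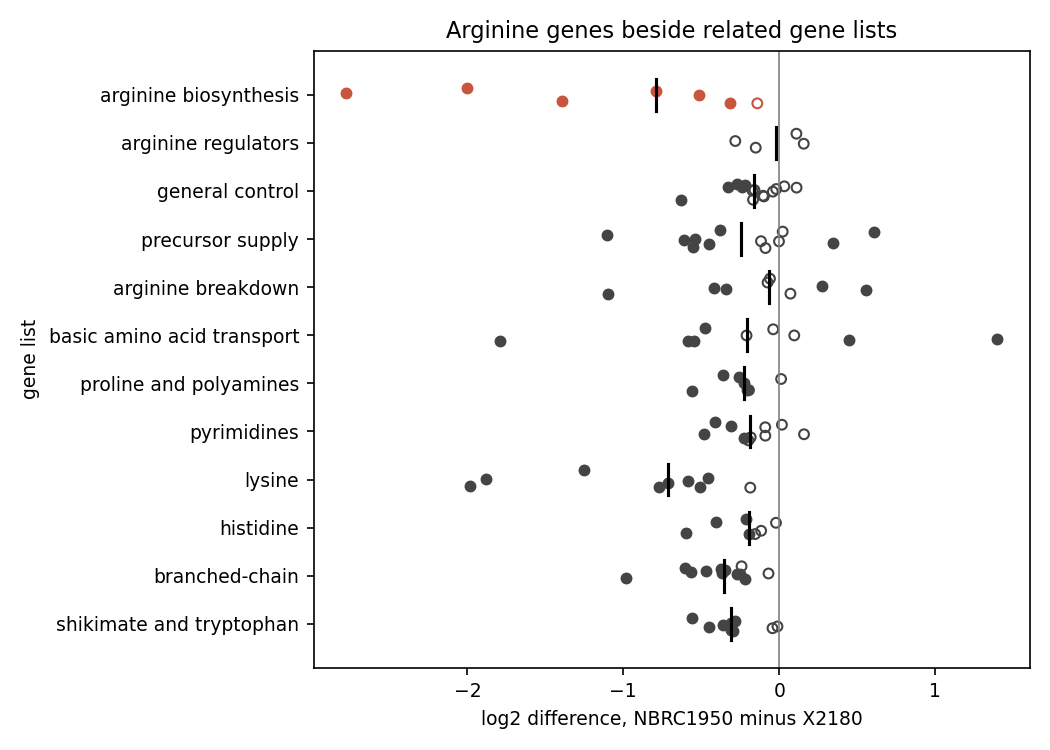
Log2 difference, NBRC1950 minus X2180, under the main scaling for the genes of arginine biosynthesis (red) and of related lists (black), with filled points for genes that passed the limma test, open points for those that did not, and a bar at each median. The medians lie at -0.79 for arginine and -0.72 for lysine, and between -0.36 and -0.02 for the other lists drawn.

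Other amino acid pathways that answer to Gcn4 were read beside the arginine genes. Of 9 lysine genes, 8 were lower and 0 higher, with a median of -0.72. They included LYS20 (-1.98) and LYS1 (-1.88), and 3 of the 9 were lower when scaled to all probe sets, as were 3 of the 7 arginine genes. Of 12 branched-chain genes, 10 were lower, with a median of -0.36 and BAT2, the cytosolic aminotransferase, at -0.98. Of 9 shikimate and tryptophan genes, 7 were lower, with a median of -0.31, and of 7 histidine genes, 4 were lower, with a median of -0.19. In all, 29 of these 37 genes were lower (78.4%) and 0 higher, against 6 of 7 arginine genes (85.7%). Of all tested genes, 26.8% were lower and 20.4% higher. Of the branched-chain genes, 6 were lower without X2180 replicate 1 or NBRC1950 replicate 1, of the histidine genes 2 without X2180 replicate 2 or either NBRC1950 array, and of the shikimate and tryptophan genes 4 without NBRC1950 replicate 1. Scaled to all probe sets, 0 histidine genes, 0 shikimate and tryptophan genes and 1 branched-chain gene were lower. Called higher there were 5 histidine, 6 shikimate and tryptophan, 5 branched-chain and 1 lysine genes. Under that scaling 6.04% of all tested genes were lower and 74.6% higher. Whether the arginine genes differed from these lists was not tested.

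The tested genes outside the 8 whose centred log2 signals over the 4 arrays lay nearest to the mean profile of the 7 arginine genes, by Euclidean distance, were SAP4, GLO2, CWH41, PUG1 and PHO81. The distances ran from 0.02 to 0.09 log2 units. With 2 strains and 4 arrays the measure mostly finds genes with a difference near the mean of the 7, which was -1.13. SAP4, a partner of the phosphatase Sit4, was at -1.14, GLO2, a glyoxalase, at -1.07 and CWH41, a glucosidase of glycoprotein processing, at -1.18. PUG1, a plasma membrane protein of porphyrin and heme transport, was at -1.13, and PHO81, an inhibitor of the kinase in phosphate signalling, at -1.07.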

How the data were processed

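Poly(A) RNA of 2 X2180 and 2 NBRC1950 samples was labelled with biotin and hybridized to 1-colour arrays, per the labels' protocols. The authors deposited 1 linear intensity per probe set and array. The submitters' processing notes list GCOS alone; its settings are not given in the sources used here. Per the design text, the authors then divided by the 50th percentile of each chip and by X2180, which was not visible in the deposited intensity values.

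The array's annotation, matched by gene identifier to the R64 gene table, gave 1 gene for 5498 of 10928 probe sets. The 5217 probe sets that were no controls and named no S. cerevisiae gene served as background. Intensities were scaled per array to a common S. cerevisiae median of 973.6, floored at 4.567, the median background, and converted to log2. Before scaling, that median was 894 to 964.4 in X2180 and 982.9 to 1171 in NBRC1950. Probe sets with a geometric mean above 16.35, the 90th background percentile, were tested, which left 5316 genes, each read by its brightest probe set. The test was that of limma 3.58.1 (R 4.3.3), with lmFit, eBayes with an intensity trend, no covariates, and Benjamini-Hochberg adjustment over all tested probe sets. The fit had 2 residual degrees of freedom and 5.415 prior ones, so the number of arrays limits the precision. The test was also run on simulated arrays with known changes in probe sets well above background. That run skipped the scaling step, so it does not bear on the choice of scaling. The duplicates are independent experiments per the design text; p-values measure the spread between these arrays. Alternatives covered scaling, floor, filter, variance trend, left-out arrays, a replicate block, probe set averaging and the t-test of the design text.

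The members and gene lists were chosen with earlier results of these data known. Named were all measured members, all genes of the small lists, GCN4, up to 4 genes with the smallest adjusted p in each other list, called neighbours, and the 5 nearest profiles. CAN1 and the neighbour SIP4, neither of them called, were named outside this rule, as were the genes marked in the text. For the 4 other amino acid pathways, fewer were named. A planned search for a Gcn4 motif in the promoters was not run, and no sequences are shown.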

Additional observations from a re-analysis of the deposited data

How the results depend on the processing

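The scaling was the choice that mattered most. Over all tested genes, 1083 were higher and 1426 lower in the main setting. Without further scaling these counts were 925 and 383, and scaled to all probe sets they were 3968 and 321. Among only those genes that passed the test in either direction, the higher ones made up 43.2% in the main setting. That share was 70.7% without further scaling, 92.5% when scaled to all probe sets and 52.0% after quantile normalization. Of the 7 arginine genes, 2 were then higher and 3 lower with all probe sets, and their median was -0.247, or -0.585 with no further scaling. The differences of ARG2 (0.0293), CPA1 (0.229) and ARG8 (0.405) turned positive when scaled to all probe sets, and ARG8 (0.0677) with no further scaling. Both scalings shift the fitted differences of genes above the floor by a common amount, but the limma p-values did not follow that shift alone. For ARG1 the difference shrank from -2.776 to -2.23 when scaled to all probe sets, yet its limma adjusted p fell from 1.57e-06 to 6e-84. The methods' t-test on values scaled to all probe sets called 2909 genes higher and 237 lower unadjusted, 2 and 3 of the 7, and 1440 and 145 after Benjamini-Hochberg, 1 and 2 of the 7. Of 98 values of the 7 genes under alternatives to the limma fit, 90 kept direction and side of the threshold, 4 lost the call and 4 turned sign. Floor, filter, variance trend, replicate block and probe set averaging left the 7 fitted differences unchanged, so no sign could turn there. The 4 turned signs came with no further scaling or with scaling to all probe sets. With 1 array left out, 5 to 6 of the 7 were lower, 0 were higher, and their median ran from -0.99 to -0.60; over all genes 745 to 1039 were higher and 1037 to 1368 lower. Same-numbered arrays of the strains deviated together at 0.0564 across genes and were not taken as pairs. With the replicate number as a block, 6 of the 7 were lower and 0 higher, at a median of -0.793, and 1159 genes were higher and 1512 lower. Signals of the 7 genes lay above background on every array, and their precision rests on 2 arrays per strain.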
